A study of Homo sapiens with 4 samples.

Results

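The BACH, NRF2 and small MAF regulators were followed over 4 arrays of Nalm-6, a line of human pre-B leukemia cells. All probes were taken whose RefSeq accession in the scanner files maps to BACH1, BACH2, NFE2L1, NFE2L2, KEAP1, MAFF, MAFG, MAFK or SQSTM1. No measured value entered that rule. It gave 14 probes of 9 genes, out of 41000 probes and 18203 genes with a symbol. The groups were wild-type cells (WT), cells without a working gene for actin-related protein 5 (Arp5 KO) or for actin-related protein 8 (Arp8 KO), and a culture that the labels call Arp8 overexpressing (Arp8 OE). Both proteins belong to the INO80 complex, which moves nucleosomes with the energy of ATP. Arp5 KO is 1 line with both alleles of the gene disrupted. Arp8 KO is a line from earlier work, for which the study also speaks of a conditional knockout, and how much Arp8 its cells still had was not measured here. Each group was 1 array, so no test between conditions was possible, and no difference below was checked against a second culture.

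The labels give heme, an inducer of oxidative stress, at 20 uM for 12 h. Titles, treatment protocol and design text apply it to all 4 groups. The treatment entry of both knockouts reads no heme, and the sample source reads without heme for Arp5 KO and with heme for Arp8 KO. A difference in genotype and a difference in heme therefore cannot be told apart between WT and the knockouts. The same holds between the knockouts, and between either knockout and Arp8 OE.

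The regulators form a switch on one kind of DNA element. NRF2, encoded by NFE2L2, and NRF1, encoded by NFE2L1, are cap'n'collar activators. Each pairs with a small MAF protein (MAFF, MAFG or MAFK) on MAF recognition and antioxidant response elements, and turns on genes of heme breakdown, glutathione and thioredoxin. BACH1 and BACH2 pair with the same small MAFs on the same elements and repress, and heme binding takes both off DNA. KEAP1 hands NRF2 to a ubiquitin ligase, and SQSTM1 (p62) binds KEAP1 and carries it to autophagy. BACH2 is the form best known in B cells, where it holds back plasma cell differentiation. MAFG, SQSTM1 and KEAP1 are themselves known NRF2 target genes.

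The stretch just before the start of transcription is printed for the 4 genes that lay below WT by more than 2 technical SDs on all 3 other arrays (MAFF, MAFG, KEAP1 and SQSTM1) and for both BACH genes, to show which elements of this switch lie there. RefSeq lists 16 windows of 300 bases for 8 of the 9 genes, on GRCh38.p14. MAFK was not matched. Capitals mark 3 motifs searched on both strands. TGACNNNGC is the core of the antioxidant response element, TGAGTCA is the core of 1 kind of MAF recognition element and of the AP-1 site, and TGACGTCA is the core of the other kind and of the cAMP response element. The first can overlap the second when that one is read on the opposite strand. For MAFF, KEAP1 and BACH1, which have several windows, the window that holds a motif was chosen for print. For SQSTM1, with 3 windows and no motif, the last by position was. Each line below holds 150 bases that end at the base before the start, 5′ to 3′ along the gene.
MAFF, chr22:38201844-38201993, plus strand: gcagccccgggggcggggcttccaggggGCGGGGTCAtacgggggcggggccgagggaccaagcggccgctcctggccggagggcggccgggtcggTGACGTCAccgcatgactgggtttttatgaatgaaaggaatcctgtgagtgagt
MAFG, chr17:81927736-81927885, minus strand: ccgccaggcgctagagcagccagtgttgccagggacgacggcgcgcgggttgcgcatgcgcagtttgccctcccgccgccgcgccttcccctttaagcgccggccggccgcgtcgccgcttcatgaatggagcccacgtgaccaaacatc
SQSTM1, chr5:179820755-179820904, plus strand: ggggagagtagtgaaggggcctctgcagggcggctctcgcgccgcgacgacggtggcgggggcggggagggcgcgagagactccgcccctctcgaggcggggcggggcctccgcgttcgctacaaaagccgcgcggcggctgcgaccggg
KEAP1, chr19:10502772-10502921, minus strand: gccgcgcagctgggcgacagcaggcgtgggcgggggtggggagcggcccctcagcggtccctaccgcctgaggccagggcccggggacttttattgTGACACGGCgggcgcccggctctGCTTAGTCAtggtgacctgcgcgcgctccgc
BACH1, chr21:29298772-29298921, plus strand: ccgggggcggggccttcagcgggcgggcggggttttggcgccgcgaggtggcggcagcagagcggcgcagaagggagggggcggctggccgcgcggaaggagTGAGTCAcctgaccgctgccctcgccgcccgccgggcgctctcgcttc
BACH2, chr6:90296844-90296993, minus strand: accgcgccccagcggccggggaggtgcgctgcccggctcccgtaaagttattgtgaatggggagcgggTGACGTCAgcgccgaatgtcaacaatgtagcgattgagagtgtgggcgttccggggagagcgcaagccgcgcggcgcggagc

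TGACNNNGC stood in 2 of the 16 windows of the regulators, 1 of KEAP1 and 1 of MAFF. KEAP1 held it 54 bases before the start and again, on the opposite strand, 31 bases before it. MAFF held it 122 bases before the start on the opposite strand. Of 35116 windows of this length over all genes, 13.3% hold the motif. TGAGTCA stood in 1 of the 16, in BACH1, 48 bases before the start, and in 4.95% of all windows. TGACGTCA stood in 2 of the 16, in MAFF, 54 bases before the start, and in BACH2, 82 bases before it. It stood in 1.85% of all windows. The MAFG and SQSTM1 windows held none of the 3. These matches are letters in a window and were not measured as binding sites.

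A level below is log2 of a probe's processed signal over the 75th percentile of its array, and a difference is one level minus another. The 75th percentile lay between 647.4 and 739.6, and 55.8% to 57.4% of probes were well above background, a flag of the scanner software. No spot was saturated, and all 4 arrays were on 1 slide with 1 scan time. ACTR5, which encodes Arp5, was lower in Arp5 KO, by 19.3-fold against WT. Both probes of ACTR8, which encodes Arp8, were lower in Arp8 KO, by log2 differences of -0.53 and -0.68. On the array labelled Arp8 OE the same ACTR8 probes differed from WT by 0.02 and -0.01, so no rise of ACTR8 was measured there. The pre-B markers CD79A, CD79B, VPREB1 and IGLL1 were well above background on every array. Of 5 T cell markers each array had 1 well above background, CD3E in Arp8 KO and CD8A on the others. HMOX1, the heme oxygenase gene that this switch is best known for, had a level of -0.51 in WT, -2.56 on the array labelled Arp8 OE, -3.42 in Arp8 KO and -3.48 in Arp5 KO.

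Every regulator gene was detected. Of the 14 probes, 12 were well above background on all 4 arrays and 2 on 3 arrays. Each had 1 spot per array, so its error was taken from probes of like level among 264 that are printed 10 times. The technical SD of a difference obtained this way lay between 0.07 and 0.38 and covers spots of an array only. Neighbours in the order of the 4 arrays closer than 2 technical SDs are called not apart.

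**Figure D1:**
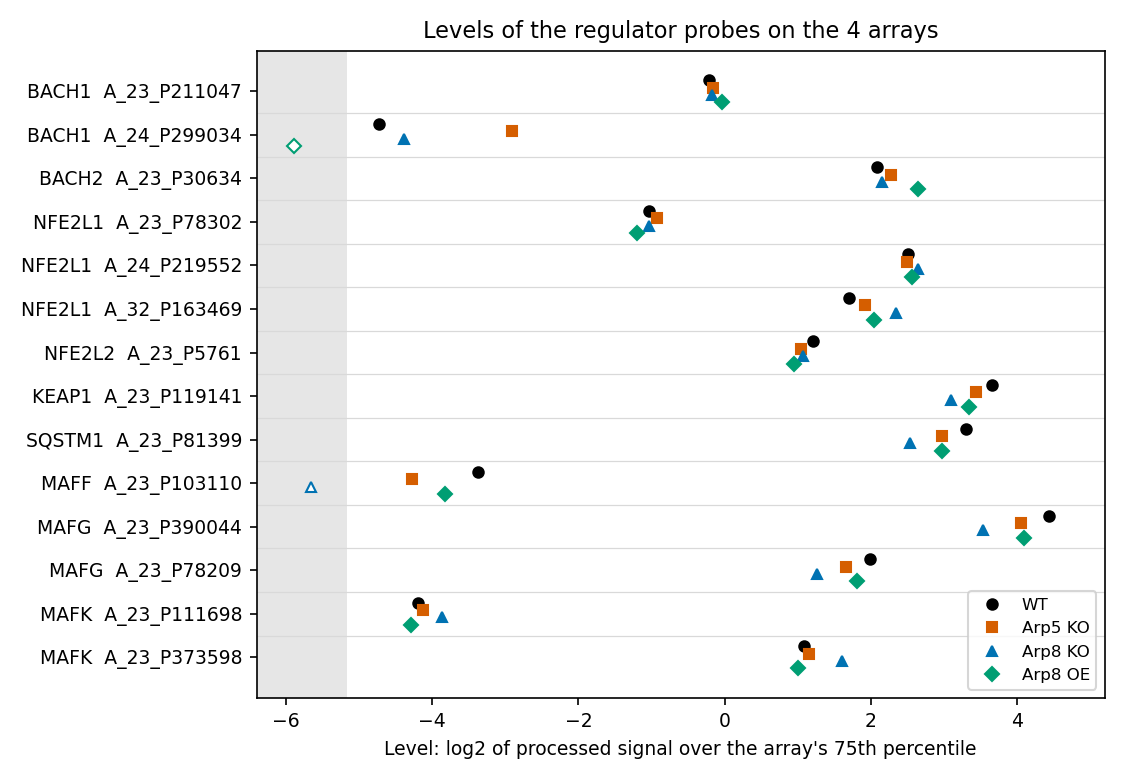
Level of each regulator probe (log2 of processed signal over the array's 75th percentile, horizontal axis) on each of the 4 arrays. Open symbols are probes not well above background, and grey marks levels under the lowest floor (-5.17). The WT symbol lies farthest right for KEAP1, SQSTM1, MAFF and both MAFG probes, and the Arp8 KO symbol farthest left.

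Among the small MAF genes, MAFF and MAFG had their lowest levels in Arp8 KO, while MAFK was higher on 1 of its 2 probes. MAFF, a stress-inducible small MAF with no transactivation domain, had a level of -3.37 in WT, -3.82 on the array labelled Arp8 OE, -4.28 in Arp5 KO and -5.66 in Arp8 KO, where it was not well above background. All 3 gaps in that order were larger than 2 technical SDs, but with normexp Arp8 KO minus Arp5 KO went from -0.88 to -0.15 and was no longer apart. Against WT it was at least 3.46-fold lower in Arp8 KO, measured to the floor of -5.17, and 1.88-fold lower in Arp5 KO (technical SD of the log2 difference 0.16). In RNA of a whole culture, fewer cells that make a transcript and less of it per cell cannot be told apart. MAFF is a dim probe, and normexp background correction brought its log2 difference in Arp8 KO from -1.79 to -0.62. In Arp5 KO it went from -0.909 to -0.465 and in Arp8 OE from -0.446 to -0.2. The Arp8 OE value was then within 2 technical SDs of WT (technical SD 0.15).

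MAFG, the main partner of NRF2 in many tissues, had 2 probes that went the same way. Probe A_23_P390044 had a level of 4.44 in WT, 4.10 in Arp8 OE, 4.05 in Arp5 KO and 3.53 in Arp8 KO. Probe A_23_P78209 had 1.99, 1.81, 1.66 and 1.26 in the same order. On both, WT was apart from the others, Arp8 OE and Arp5 KO were not apart from each other, and Arp8 KO was apart below them. The log2 differences in Arp8 KO were -0.90 and -0.73 (technical SD 0.07 and 0.08), or 1.87-fold and 1.66-fold lower. In Arp5 KO they were -0.39 and -0.33. Cyclic loess, which removes trends with signal strength, left the Arp8 KO values at -0.92 and -0.73.

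MAFK, the third small MAF, did not follow MAFG. Its bright probe A_23_P373598 had a level of 1.08 in WT, 1.16 in Arp5 KO, 1.01 in Arp8 OE and 1.61 in Arp8 KO. Arp8 KO was apart above the other arrays, by a log2 difference of 0.54 from WT (1.45-fold, technical SD 0.08), and the others were not apart. The dim probe A_23_P111698 ran from -4.29 in Arp8 OE to -3.87 in Arp8 KO. No neighbours in its order were apart.

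KEAP1 and SQSTM1, the pair that sets NRF2 turnover, were highest in WT and lowest in Arp8 KO, as MAFG was. KEAP1 had a level of 3.66 in WT, 3.44 in Arp5 KO, 3.35 in Arp8 OE and 3.10 in Arp8 KO. Its log2 difference from WT was -0.57 in Arp8 KO (1.48-fold lower), -0.22 in Arp5 KO and -0.31 in Arp8 OE (technical SD 0.07 each). SQSTM1 had a level of 3.30 in WT, 2.97 in both Arp8 OE and Arp5 KO, and 2.53 in Arp8 KO. Its log2 difference was -0.77 in Arp8 KO (1.71-fold lower), -0.33 in Arp5 KO and -0.33 in Arp8 OE. For both genes WT was apart at the top, Arp8 KO was apart at the bottom, and Arp5 KO and Arp8 OE were not apart. Set against the array labelled Arp8 OE in place of WT, Arp5 KO differed by 0.09 for KEAP1, -0.00 for SQSTM1 and -0.06 for the brighter MAFG probe, while Arp8 KO stayed lower, by -0.25, -0.44 and -0.57.

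**Figure D2:**
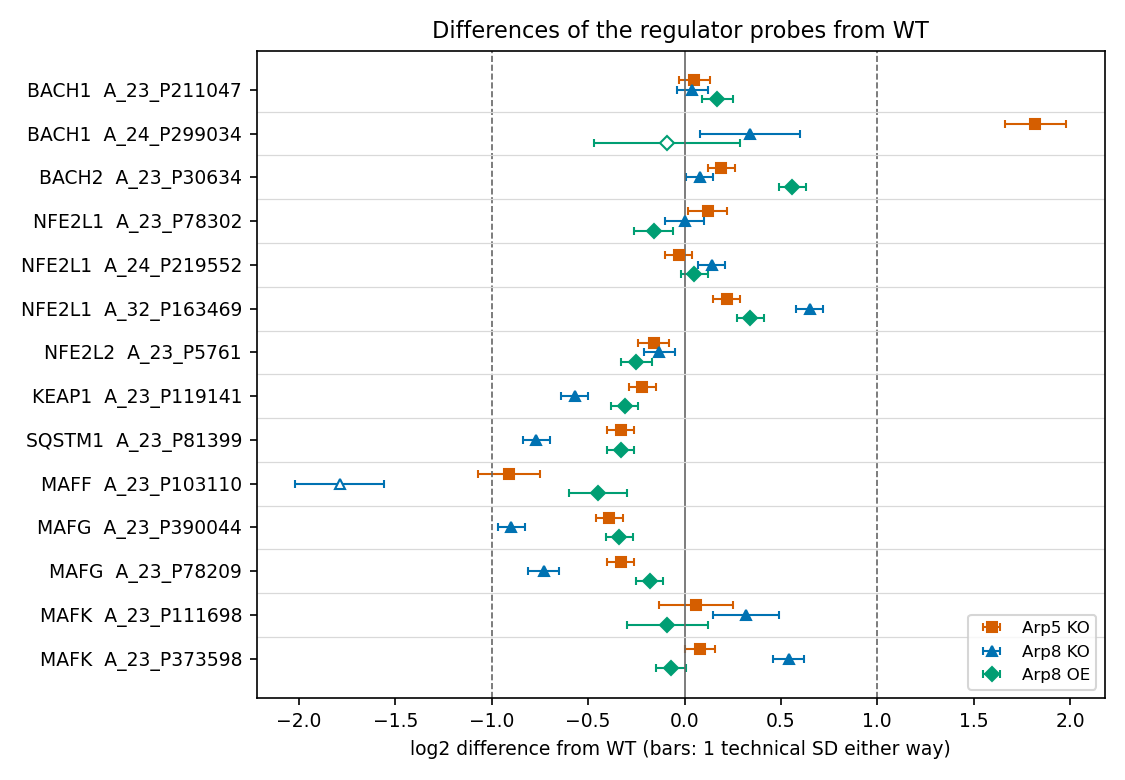
log2 difference from WT (horizontal axis) of each regulator probe on the 3 other arrays. Bars are 1 technical SD either way, dashed lines are 2-fold, and open symbols are bounds. Past the dashed lines lie the dim BACH1 probe in Arp5 KO (1.82) and MAFF in Arp8 KO (-1.79), and BACH2 is highest in Arp8 OE (0.56).

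Of the repressor genes, BACH1 differed most on a dim probe in Arp5 KO, and BACH2 on the array labelled Arp8 OE. BACH1, which represses HMOX1 and is displaced by heme, had levels of -0.21 in WT, -0.17 in Arp8 KO, -0.16 in Arp5 KO and -0.04 in Arp8 OE on the probe for its coding transcript, A_23_P211047. No neighbours in that order were apart, though both ends of it were (0.17, technical SD 0.08). The other probe, A_24_P299034, carries the accession of a non-coding transcript of the gene. It had -4.73 in WT, -4.39 in Arp8 KO and -2.91 in Arp5 KO, and was not well above background on the array labelled Arp8 OE. Arp5 KO was thus 3.53-fold above WT and 2.79-fold above Arp8 KO. Of its 6 adjacent spots on the slide 1 was also bright on Arp5 KO alone, and whether the 2 spots are linked was not tested. With normexp its log2 difference in Arp5 KO was 0.48 in place of 1.82.

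BACH2 had a level of 2.08 in WT, 2.16 in Arp8 KO, 2.27 in Arp5 KO and 2.64 on the array labelled Arp8 OE. The array labelled Arp8 OE was apart above the others, by a log2 difference of 0.56 from WT (1.47-fold, technical SD 0.07). Among WT, Arp8 KO and Arp5 KO no neighbours were apart, though Arp5 KO lay 0.19 above WT, which is more than 2 technical SDs. Of the probes well above background in both WT and Arp8 OE, 6.83% lay at least as far above WT in Arp8 OE.

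Of the activator genes, NFE2L2 lay within 0.25 of WT on every array, and NFE2L1 differed most from WT on 1 of its 3 probes. NFE2L2, which encodes NRF2, had 1.21 in WT, 1.07 in Arp8 KO, 1.04 in Arp5 KO and 0.95 in Arp8 OE. WT was highest and no neighbours were apart, though both ends of the order were. Its log2 differences from WT were -0.13 in Arp8 KO, -0.16 in Arp5 KO and -0.25 in Arp8 OE (technical SD 0.08). NRF2 is mostly set by the stability of the protein, which an array does not measure.

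NFE2L1, which encodes NRF1, had 3 probes that disagreed. Probe A_32_P163469 had 1.70 in WT, 1.92 in Arp5 KO, 2.04 in Arp8 OE and 2.35 in Arp8 KO. Arp8 KO was apart at the top and WT at the bottom, with a log2 difference of 0.65 between them (1.57-fold). Probe A_24_P219552 ran from 2.49 to 2.65 and probe A_23_P78302 from -1.20 to -0.92. Neither had neighbours that were apart, though the ends of each order were. The files do not hold probe sequences, so it was not determined whether the first probe reads other transcripts of the gene.

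Few of the regulators passed the study's 2-fold threshold, and few probes did over the whole array. In Arp5 KO 1 of 14 probes was over 2-fold higher than in WT (the dim BACH1 probe) and 0 were lower, where 1.69% and 2.01% of all 24285 probes tested were. In Arp8 KO 0 were higher and 1 was lower (MAFF, as a bound), beside 3.37% and 4.35% of all probes. The array labelled Arp8 OE had 0 higher and 0 lower, beside 2.96% and 2.15%. Between the knockouts, 0 were higher in Arp8 KO and 1 was lower (the dim BACH1 probe), beside 2.53% and 3.18%. At 1.5-fold, 4 of 14 probes of 3 genes (28.6%) were lower in Arp8 KO, where 11.2% of all probes were, and 1 was higher (NFE2L1), where 10.0% of all probes were. The 4 were MAFF, both MAFG probes and SQSTM1. The knockouts share the WT array.

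**Figure D3:**
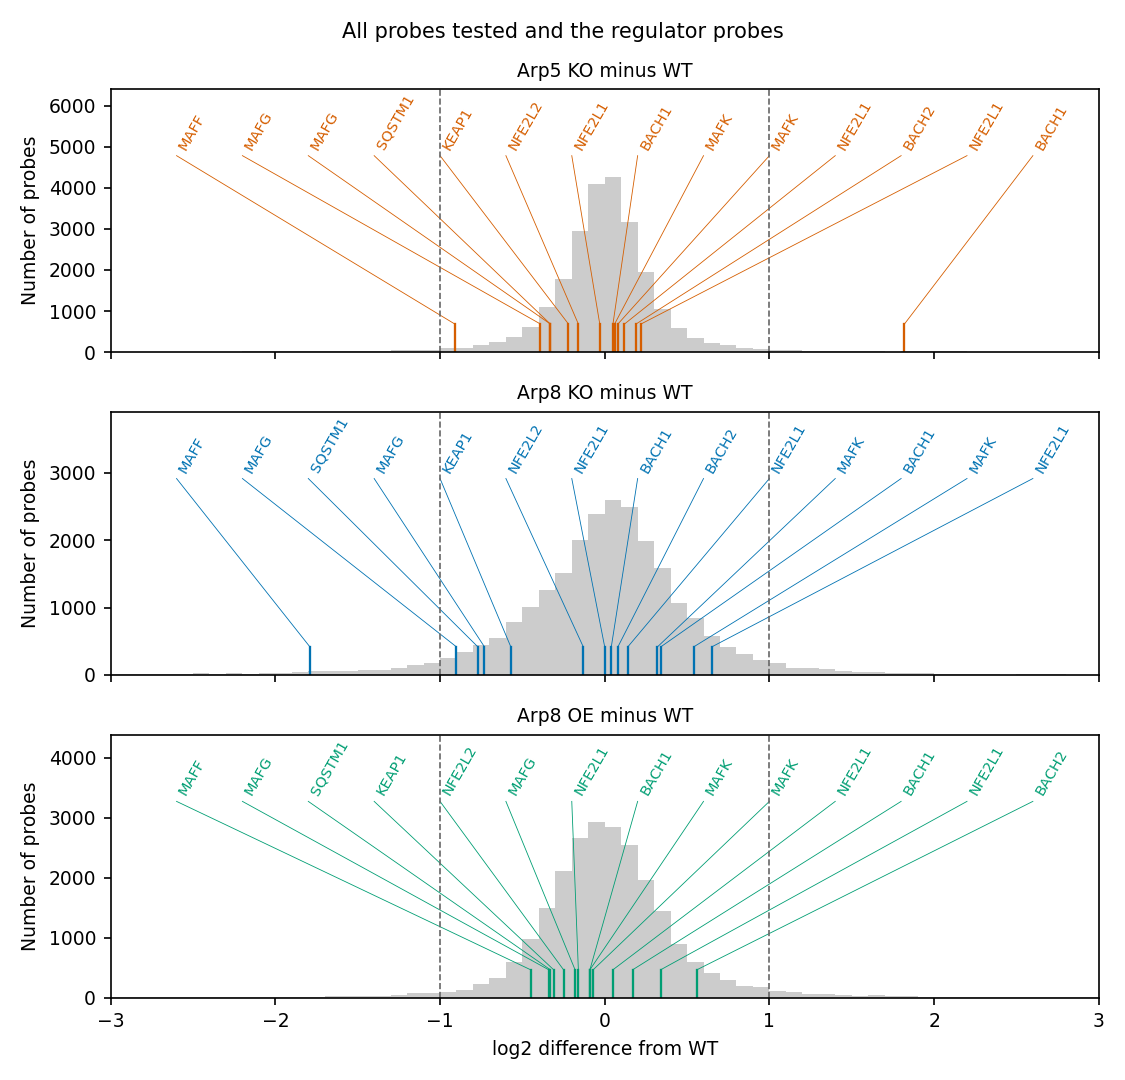
Number of probes (vertical axis) by log2 difference from WT (horizontal axis), with a panel for each other array, for all probes tested (grey) and the 14 regulator probes (coloured lines, named by gene). Dashed lines are 2-fold. Most regulator probes lie within the bulk of the grey bars, with MAFF (-1.79) in the lower tail of Arp8 KO and BACH1 (1.82) in the upper tail of Arp5 KO.

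The regulators went both ways. The median log2 difference of the 14 probes from WT was 0.02 in Arp8 KO, 0.01 in Arp5 KO and -0.13 in Arp8 OE, and that of all probes tested was 0.03, 0.00 and 0.00. With the probes of a gene averaged, the medians over genes were -0.13, -0.16 and -0.25. In each knockout 7 probes lay above WT and 7 below, on the array labelled Arp8 OE 4 lay above and 10 below, and 9 of 14 were lower in Arp8 KO than in Arp5 KO. The size of the difference, without its sign, had a median of 0.44 in Arp8 KO for the regulators and 0.28 for all probes, and of 0.37 and 0.22 between the knockouts. Of 21783 probes well above background on all 4 arrays, 8.97% had a range of at least 1 over the arrays. Among the 12 such regulator probes the widest range was 0.90 (MAFG). The other 2, which were not well above background on 1 array, had wider ranges of 1.79 (MAFF) and 1.91 (BACH1, the dim probe). The 3 genes whose differences from WT over the 3 other arrays were nearest to that MAFG probe, by Euclidean distance among 16576 probes, were IRF2, CYB5B and ATG12. Their log2 differences were -0.40, -0.90 and -0.31 for IRF2, -0.36, -0.92 and -0.33 for CYB5B, and -0.43, -0.91 and -0.33 for ATG12, each time for Arp5 KO first, Arp8 KO next and Arp8 OE last. MAFG was taken for that search after its values were seen, as the widest of the 12.

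Genes that act with the regulators were given by list. Of other cap'n'collar and large MAF genes, NRL and MAFA each had a probe well above background on all 4 arrays. Neither differed from WT by more than 0.39. No array had a probe of NFE2, NFE2L3 or MAF well above background.

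The list for degradation and processing of NRF2, NRF1 and BACH1 had 26 tested probes of 17 genes. In Arp8 KO 2 were over 2-fold higher and 0 lower, beside 3.37% and 4.35% of all probes. None was past 2-fold in Arp5 KO or Arp8 OE, where 1.69% to 2.96% of all probes were in each direction. Both probes past 2-fold in Arp8 KO were for receptors of ubiquitin ligases that degrade BACH1. FBXO22 had a level of -4.51 in WT and -2.32 in Arp8 KO on the dim probe A_24_P13715, which was 4.57-fold higher and has an adjacent spot bright on 1 array. On its bright probe A_23_P65870 it had 0.61 in WT, 1.41 in Arp8 KO, 0.31 in Arp8 OE and 0.29 in Arp5 KO, so Arp8 KO was 1.73-fold above WT and 2.16-fold above Arp5 KO. FBXL17 was 2.15-fold higher in Arp8 KO on A_32_P137632 and 1.13-fold on the brighter A_32_P20288. All 3 probes of VCP, the ATPase that extracts NRF1 from the membrane, were lower than in WT on every other array. Log2 differences ran from -0.71 to -0.59 in Arp8 KO, -0.68 to -0.4 in Arp8 OE and -0.32 to -0.3 in Arp5 KO. The VCP probes were chosen after their values were seen.

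Among autophagy partners of SQSTM1, GABARAPL1, an ATG8 family protein that binds such receptors, was the gene past 2-fold lower in all 3 comparisons. On A_23_P162640 its level was 0.18 in WT, -1.02 in Arp8 OE, -1.14 in Arp5 KO and -2.35 in Arp8 KO. On A_24_P4816 it was -0.93, -2.09, -2.22 and -3.56. WT was thus highest and Arp8 KO lowest, as for SQSTM1. The differences in Arp8 KO were 5.76-fold and 6.18-fold. The list's median log2 difference over 20 tested probes was -0.21 in Arp8 KO, and the related MAP1LC3B lay within 0.16 of WT on all 3 of its probes on every array. A probe of WDFY3, named after its value was seen, was well above background in Arp8 OE alone. That was the 1 probe of this list over 2-fold higher on any array.

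Among targets of the switch, probes past 2-fold all lay below WT. Of 33 tested probes of 20 antioxidant response element genes, 13 were over 2-fold lower in Arp8 KO, 4 in Arp5 KO and 5 in Arp8 OE, and 0 were higher in any. These probes stood for 8, 3 and 4 genes in the same order of arrays, since several genes have more than 1 probe. Of all probes, 4.35%, 2.01% and 2.15% were lower. The medians were -0.77, -0.20 and -0.33. With the array labelled Arp8 OE as the reference, the median was -0.38 in Arp8 KO and turned to 0.18 in Arp5 KO. NQO1, a quinone reductase, was 3.62-fold lower in Arp8 KO, 1.59-fold in Arp5 KO and 3.22-fold in Arp8 OE. GCLM, the modifier subunit of the glutathione-making ligase, was 2.40-fold, 1.58-fold and 1.77-fold lower, and GSR, which regenerates glutathione, 2.19-fold, 1.33-fold and 1.65-fold on its brighter probe. The dimmer GSR probe was 1.67-fold lower in Arp8 KO. CBR1, a carbonyl reductase, was 2.79-fold, 2.10-fold and 2.44-fold lower.

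SLC7A11, the cystine transporter, was 4.16-fold lower in Arp5 KO on both of its probes past 2-fold. In Arp8 KO its log2 differences were -3.33 on one and, as a bound, -3.48 on the other, and in Arp8 OE they were 0.00 and -0.22. TXN, thioredoxin, differed from WT by -1.69 and -1.72 in Arp8 KO, -0.17 and -0.11 in Arp5 KO, and -1.53 and -1.62 in Arp8 OE. FTH1, ferritin heavy chain, was 3.27-fold to 3.77-fold lower in Arp8 KO on 4 probes. Another, A_32_P342064, had -0.70. Ferritin has near-identical pseudogenes, and which copies these probes read was not determined. HMOX1 differed by -2.91 in Arp8 KO, -2.98 in Arp5 KO and -2.05 on the array labelled Arp8 OE. The targets thus did not share 1 order of the arrays. Arp5 KO lay above Arp8 OE for TXN and below it for SLC7A11 and HMOX1. For HMOX1 the knockouts differed by 0.07, below the technical SD of 0.15 for probes with 1 spot. The HMOX1 level is a mean of 10 spots, whose smaller error was not computed.

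The 20 probes of 14 proteasome genes reported as NRF1 targets all lay below WT on every other array, with 0 past 2-fold. Their log2 differences had a median of -0.54 in Arp8 KO (-0.97 to -0.37), -0.29 in Arp5 KO (-0.43 to -0.10) and -0.40 in Arp8 OE (-0.67 to -0.21). With the array labelled Arp8 OE as the reference, the median was -0.15 in Arp8 KO and turned to 0.16 in Arp5 KO. Of all probes tested, 47.3%, 49.3% and 50% lay below WT. The lowest in Arp8 KO was PSMD11, a lid subunit, at -0.97. NFE2L1 itself was not lower in Arp8 KO on any of its 3 probes by more than the technical SD.

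**Figure D4:**
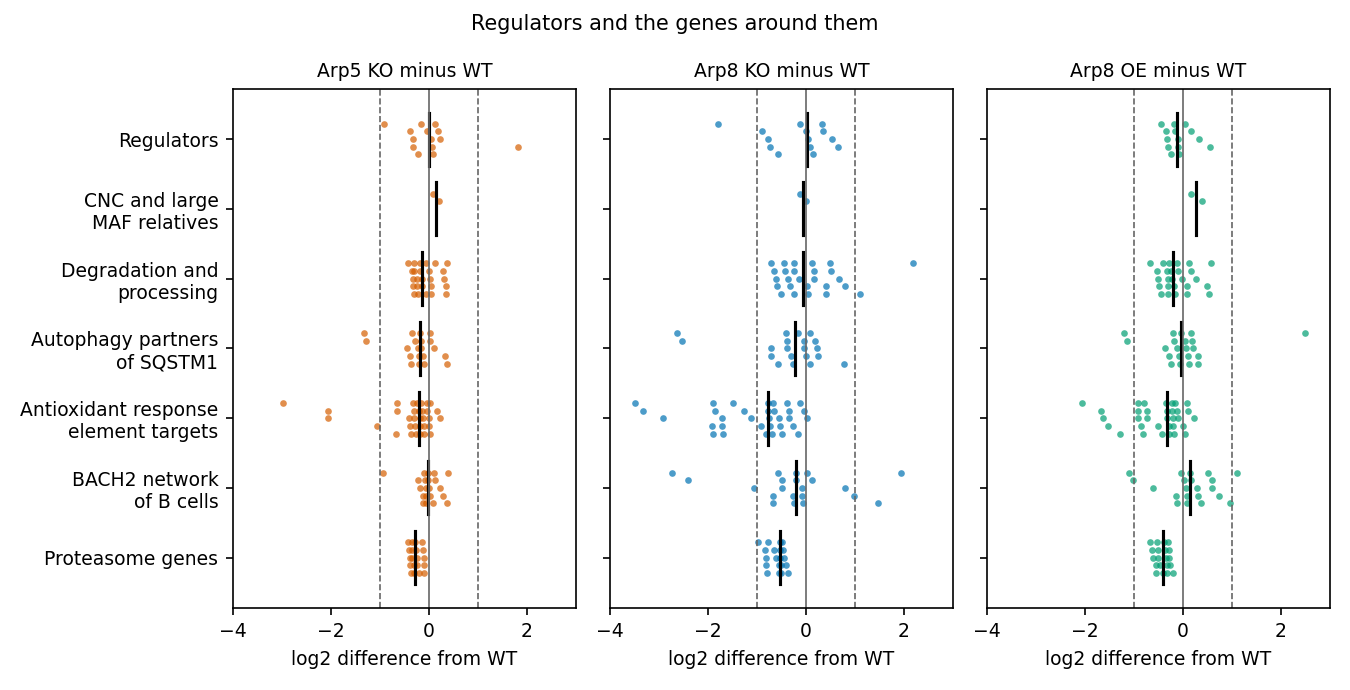
log2 difference from WT (horizontal axis) of each tested probe of the regulators and of 6 gene lists, with a panel for each array other than WT. Each point is 1 probe, black bars are medians and dashed lines are 2-fold. The antioxidant response element targets lie to the left, with a median of -0.77 in Arp8 KO, while the median of the regulators there is 0.02.

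In the BACH2 network of B cells, 2 of 21 tested probes were over 2-fold higher in Arp8 KO and 3 lower, beside 3.37% and 4.35% of all probes, with a median of -0.21. In Arp5 KO 0 were higher and 0 lower, beside 1.69% and 2.01% of all probes. In Arp8 OE 1 was higher and 2 lower, beside 2.96% and 2.15%. BCL6, which works with BACH2 to hold back plasma cell differentiation, was 6.70-fold lower in Arp8 KO, 1.92-fold in Arp5 KO and 2.14-fold in Arp8 OE on a probe with an adjacent spot bright on 1 array. SPIB, an ETS factor of B cells, was 2.07-fold and 5.27-fold lower in Arp8 KO and 1.52-fold and 2.03-fold lower in Arp8 OE. CDKN1A, a cell cycle inhibitor that BACH2 represses, was 2.80-fold and 3.86-fold higher in Arp8 KO and 1.43-fold and 1.66-fold higher in Arp8 OE. RAG1 was 2.15-fold higher on the array labelled Arp8 OE on 1 probe, with a log2 difference of 0.96 on the other. PRDM1, the plasma cell regulator that BACH2 represses, was well above background on none of the 4. The 3 plasma cell markers were PRDM1, SDC1 and TNFRSF17. The log2 of their summed level was 3.22 in Arp8 KO, 2.87 in Arp8 OE, 2.54 in Arp5 KO and 2.48 in WT. SDC1 was well above background on every array and TNFRSF17 in WT alone. Outside WT the sum thus rests on 1 detected marker, and it does not show the set rising. The part of BACH2 in these differences was not tested. BACH2 itself differed from WT by 0.08 in Arp8 KO.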

How the data were processed

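Cy3-labelled total RNA of 4 Nalm-6 cultures had been hybridised to one-colour Agilent arrays. Per the file headers, the authors' deposited intensity values came from Feature Extraction 10.10.1.1, with background subtracted within each array. The deposited series matrix holds this intensity multiplied by a constant of each array (1.99 to 2.29). The deposited background flags, of another kind than intensity, mark spots well above background.

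Levels were log2 of the processed signal over the array's 75th percentile. Outlier spots were left out, and replicate spots were averaged. A probe was tested where either array of a comparison had it well above background. Otherwise dim probes were set to the lowest level well above background, which makes a difference a bound. Gene symbols came from the RefSeq table of GRCh38.p14. The headers name hg19, so probes have no coordinates. On simulated data the calculation recovered 4-fold differences planted in probes brighter than the array's 75th percentile. Smaller differences, dim probes and the floor were not tried in this way. Python 3.11.15, numpy 2.4.6, pandas 2.3.3, R 4.3.3 and limma 3.58.1 were used.

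The genes named are all regulators, ACTR5, ACTR8, HMOX1, list genes over 2-fold from WT on a probe well above background on both arrays, and cell type markers. Other genes, IRF2, CYB5B, ATG12, VCP, WDFY3, MAP1LC3B, PSMD11, NRL, MAFA, NFE2, NFE2L3 and MAF among them, were picked from the lists or the array after their values were seen. The regulators and all lists were chosen with earlier results of these data known. Values of some list genes are not reported here. The alternatives were 5 other scalings, backgrounds or tables (normexp with an offset of 50 on the median spot signal), no filter, a stricter filter, gene means, another reference array, 2 thresholds (1.5-fold and 4-fold), and leaving out probes with an adjacent bright spot. With 1 array per group, the number of arrays limits the precision.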

Additional observations from a re-analysis of the deposited data

Results flagged for a closer look

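The regulators and the list genes named for passing 2-fold from WT were searched for probes that differed from WT in opposite directions. For 3 of these genes a probe lay above WT on 1 array and below it on another, each by more than 2 technical SDs. List genes that did not pass 2-fold were not searched, and some of them, CEBPB for example, also have such a probe. With 1 array per group the difference was not tested. FBXO22, whose product targets BACH1 for degradation, lay below WT in Arp5 KO and Arp8 OE and above it in Arp8 KO on its bright probe A_23_P65870. Arp8 KO minus Arp5 KO was 1.11, and Arp8 OE minus Arp8 KO was -1.09. On its dim probe the difference from WT was -0.24 in Arp5 KO, less than 2 technical SDs, and 2.19 in Arp8 KO. FBXL17, another such gene, lay below WT in Arp5 KO and above it in the others on A_32_P137632, where Arp8 KO minus Arp5 KO was 1.45 and Arp8 OE minus Arp5 KO was 0.88. Its other probe lay above WT on all 3 arrays (0.29, 0.17 and 0.49). FTH1 lay above WT in Arp5 KO and below it in Arp8 KO on A_32_P342064, a difference of -0.92, while its other 4 probes lay below WT on all 3 arrays.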

How the results depend on the processing

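Of 364 recomputed regulator differences, 329 moved by less than the technical SD and no difference over 2-fold changed sign. With median scaling, quantile normalization, cyclic loess and the series matrix, 0 of 56 moved further in each. The series matrix holds the same intensity times a constant of each array, so its differences could not move. Median scaling shifts all probes of a comparison alike, by at most 0.04. Of the differences that moved further, 20 came with Arp8 OE as the reference, 12 with normexp and 3 without filter and floor. The cause was not tested unless named.

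The 1 probe over 2-fold higher in Arp5 KO (BACH1) became 0 with normexp, with gene means, at 4-fold and without probes beside a spot bright on 1 array. At 1.5-fold, 1 probe was lower in Arp5 KO. The 1 probe lower in Arp8 KO (MAFF) became 0 with normexp, at 4-fold and with only probes well above background on both arrays, and 4 at 1.5-fold, where 1 was higher. Of Arp8 KO against Arp5 KO, the 1 probe lower became 0 with normexp, with gene means, at 4-fold and without adjacent bright spots, and 2 at 1.5-fold and without filter and floor. On the array labelled Arp8 OE, 1 probe was over 2-fold lower without filter and floor, the dim BACH1 probe.

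Median differences of the regulators moved with gene means, to -0.16 in Arp5 KO, -0.13 in Arp8 KO, -0.25 in Arp8 OE and -0.34 between the knockouts, since 4 genes with several probes then counted once. Without adjacent bright spots the median was -0.094 in Arp5 KO and 0.011 between the knockouts. Against Arp8 OE in place of WT, the median of the antioxidant response element targets was -0.38 in Arp8 KO and 0.18 in Arp5 KO, and that of the proteasome genes -0.15 and 0.16. No paired analysis was possible because each group had 1 array. Dim probes (MAFF, 1 of BACH1 and 1 of MAFK) lie near the background, which limits their differences.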
